A study of Mus musculus with 153 samples.

Results

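The genes described here are the 45 genes whose symbols begin with Nduf and are not marked as pseudogenes, out of 25103 gene symbols counted in mouse dorsal hippocampus. They encode most of the nuclear part of respiratory complex I and the proteins that assemble it. By textbook assignment, 36 are subunits: 7 form the catalytic core (among them Ndufv1, Ndufv2, Ndufs1 and Ndufs7), 9 are accessory subunits of the matrix arm and 20 are accessory subunits of the membrane arm. A further 7 are assembly factors (Ndufaf1 to Ndufaf7). The other 2 carry the name without being complex I subunits: Ndufa4, now placed in complex IV, and Ndufa4l2, its paralog. All 45 were counted in each table and all 45 passed the filter on low counts in every comparison.

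The study pulled ribosome-bound RNA out of Cre-marked neurons by translating ribosome affinity purification (TRAP) and sequenced it beside the total lysate of the dorsal hippocampus. The genotypes were Camk2a.Cre/TRAPfl, Pvalb.Cre/TRAPfl and Sst.Cre/TRAPfl, so every mouse carried a Cre driver and the floxed TRAP allele, and the Cre promoter decides which cells were tagged. Mice stayed in the home cage, were placed in a new box without a shock (labelled box control), or were shocked in it (labelled conditioned). Libraries belong to sets of 15 and 60 min, and home-cage mice are control animals of each set. The labels describe 153 samples in 36 groups of 3 to 6, of which 151 libraries were used here (76 purified, 75 lysate). Every library is labelled as neuron, but the lysates hold all cells of the tissue: in the 60 min Camk2a set the 6 oligodendrocyte markers summed to 7526 to 10576 CPM in lysates and to 430 to 769 CPM in purified libraries, where CPM are a gene's counts scaled to a library total of 1000000. A line and a set share 1 table, so the 15 and 60 min sets, and the lines, cannot be told apart from differences between tables.

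Complex I passes electrons from NADH to ubiquinone and moves protons across the inner mitochondrial membrane. Its matrix arm holds the flavin and the chain of iron-sulfur clusters, and its membrane arm holds the proton channels, whose central proteins are encoded by mitochondrial DNA. The nuclear subunits and the mitochondrially encoded ones are joined stepwise by assembly factors. Fast-spiking parvalbumin neurons are known for many mitochondria and a high demand for ATP. The mitochondrially encoded subunits were not analysed here.

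Total counts per library ran from 9043042 to 397228206. Each level below is in CPM. The purified fractions of Camk2a and Pvalb held their own class's markers above the lysate: the 6 pyramidal markers summed to 7114 to 12072 CPM in purified Camk2a libraries at 60 min against 3392 to 5080 CPM in lysates, and the 5 parvalbumin markers to 1316 to 1813 CPM in purified Pvalb libraries at 60 min against 82.5 to 125 CPM. Those purified Pvalb libraries also held somatostatin markers, at a sum of 1228 to 3172 CPM against 394 to 725 CPM in lysates. The median of 1878 CPM was near the 2152 CPM of purified Sst libraries at 60 min. Oligodendrocyte markers in them summed to 1612 to 4679 CPM, against 8131 to 12516 CPM in lysates. Purified Sst libraries stood apart in how their own markers varied. An own-class score was taken as the mean log2 CPM of the line's own markers minus that of the other classes' markers, and it lay under 0 in 5 of 12 purified Sst libraries at 15 min and 7 of 13 at 60 min. The summed somatostatin markers spanned 177 to 9806 CPM in purified Sst libraries at 60 min. Libraries also differed in GC slope, the change of a library's log2 deviation from the mean per 10 points of a gene's GC content, taken from its longest annotated transcript. Fits without such libraries are given where they were made. In these bulk samples, fewer cells of a type and less RNA per cell cannot be told apart.

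Promoters are shown first, because complex I subunits are classic targets of nuclear respiratory factors. RefSeq promoters (GRCm38.p6, from 250 bases before to 50 after the start) were matched for 39 of the 45 genes. The NRF1 motif (GCGC, then A, then any base, then GCGC, searched on both strands like the others) stood in 9 of 39 (23.1%) against 5.19% of 27025 promoters of the same length. The YY1 motif AAGATGGC stood in 7 of 39 (17.9%) against 3.19%, and the ETS motif CCGGAAG in 5 (12.8%) against 9.93%. At least 1 of these motifs was found in 20 of 39 (51.3%) against 16.4% of all promoters. These letter counts describe the windows and do not show binding. The promoters of Ndufs7, Ndufs6 and Ndufa6 are printed, with motif matches in capitals: Ndufs7 and Ndufa6 lead the comparisons below, and Ndufs6, picked after its values were seen, holds an NRF1 and a YY1 match. They lie at chr10:80249199-80249498 on the plus strand, chr13:73328433-73328732 on the minus strand and chr15:82354242-82354541 on the minus strand. Counted from the 5′ end of each window, the YY1 match starts at base 275 in Ndufs7. In Ndufs6 an NRF1 match on the other strand starts at base 235 and the YY1 match at base 284, and in Ndufa6 an NRF1 match on the other strand starts at base 274.
Ndufs7: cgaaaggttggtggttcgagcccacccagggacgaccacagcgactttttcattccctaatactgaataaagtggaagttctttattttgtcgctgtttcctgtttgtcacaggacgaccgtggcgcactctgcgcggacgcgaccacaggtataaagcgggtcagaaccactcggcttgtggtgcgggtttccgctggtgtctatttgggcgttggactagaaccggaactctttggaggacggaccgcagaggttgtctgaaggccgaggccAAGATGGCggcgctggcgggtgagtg
Ndufs6: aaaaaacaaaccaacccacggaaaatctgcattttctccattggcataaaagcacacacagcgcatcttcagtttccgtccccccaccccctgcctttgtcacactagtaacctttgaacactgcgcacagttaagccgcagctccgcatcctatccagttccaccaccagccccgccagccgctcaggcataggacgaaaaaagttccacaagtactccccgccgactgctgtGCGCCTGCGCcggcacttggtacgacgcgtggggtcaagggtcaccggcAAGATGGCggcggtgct
Ndufa6: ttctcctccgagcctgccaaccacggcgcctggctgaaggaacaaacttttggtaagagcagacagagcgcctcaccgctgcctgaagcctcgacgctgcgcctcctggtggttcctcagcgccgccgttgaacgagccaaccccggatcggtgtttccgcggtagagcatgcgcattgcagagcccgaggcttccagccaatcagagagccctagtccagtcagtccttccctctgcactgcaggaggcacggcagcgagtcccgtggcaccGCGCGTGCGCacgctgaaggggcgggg

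Levels between genes were compared as CPM per kilobase of annotated transcript, as the mean over the 6 tables. In the purified fraction Ndufa4 was highest at 3676 CPM per kilobase, with table means of 1721 to 5246. It was followed by Ndufa1, a small membrane-arm subunit on the X chromosome, at 3006, Ndufb6 at 1952, Ndufb8 at 1772 and Ndufa3 at 1362. The core subunits spread widely: Ndufv2 (an iron-sulfur protein next to the flavin) lay at 710, Ndufs7 (carrier of the last iron-sulfur cluster before the quinone) at 653, Ndufs8 at 389, Ndufv1 (the NADH- and flavin-binding subunit) at 286, Ndufs3 at 143 and Ndufs1 (the largest subunit, with several clusters) at 84.4 CPM per kilobase. Accessory subunits stood above both other classes. The class medians in the purified fraction were 641 for the matrix-arm accessory subunits, 521 for the membrane-arm ones, 286 for the core and 49.1 for the assembly factors. In the lysates the same medians were 268, 236, 182 and 31.1. The lowest level was that of Ndufs5 at 0.589, then Ndufa4l2 at 2.09 and the assembly factors Ndufaf4 at 21.3, Ndufaf6 at 23.5 and Ndufaf7 at 24.4. Reads of Ndufs5, Ndufab1, Ndufa12, Ndufa11, Ndufs6 and Ndufb4 may be shared with named copies elsewhere in the genome, and the sources used here do not say how such reads were counted, so their levels are uncertain.

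Summed over all 45 genes, complex I transcripts made up a larger share of the ribosome-bound RNA than of the lysate. The sum ran from 8246 to 30619 CPM in 76 purified libraries, with a median of 22429 CPM, or 0.825% to 3.06% of all counts. It ran from 7662 to 13029 CPM in 75 lysates, with a median of 10213 CPM. The ranges overlap only through low purified libraries. The 4 purified Sst shock libraries at 60 min, at 8246 to 11943 CPM, were all inside the lysate range. Other purified Sst libraries lay inside it too, the lowest home-cage library at 60 min among them.

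**Figure D1:**
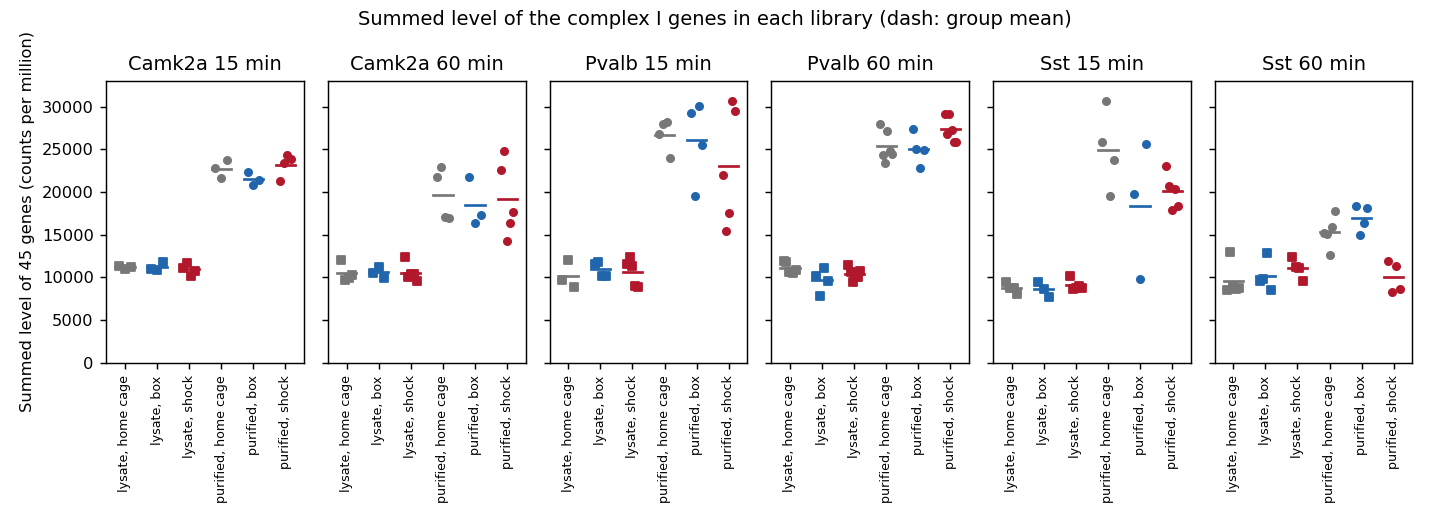
Summed CPM of the 45 complex I genes (y axis) in each purified and lysate library, grouped by line, set and condition (x axis); each point is 1 library and each dash a group mean. Lysates sit between 7662 and 13029 CPM in every group, and purified libraries reach 30619 CPM, with the 4 purified Sst shock libraries at 60 min between 8246 and 11943 CPM.

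The first comparison asked which genes were enriched on the ribosomes of the tagged neurons over the lysate. Nearly all complex I genes rose in 5 of the 6 tables. Calls here are adjusted p-values under 0.05 in edgeR (quasi-likelihood, with Benjamini-Hochberg correction across all genes tested). Of the 45 genes, 40 rose and 1 fell in Camk2a at 15 min (against 22.9% of all genes higher and 27.8% lower), and 40 rose and 1 fell in Camk2a at 60 min (22.2% and 35.3%). In Pvalb 42 rose and 0 fell at 15 min (21.3% and 24.3%), and 44 rose and 0 fell at 60 min (28% and 32.4%). In Sst 43 rose and 0 fell at 15 min (23.6% and 21.0%), and 43 and 0 without the 5 purified libraries of own-class score under 0 (23.4% and 26.0%). The median log2 fold change of the 45 genes was 1.27, 1.14, 1.28, 1.29 and 1.67 in these tables, and that of all genes lay between -0.26 and -0.05. Sst at 60 min was lower: 27 rose and 5 fell (31.2% and 28.2%), with a median of 0.69 against 0.11 for all genes.

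**Figure D2:**
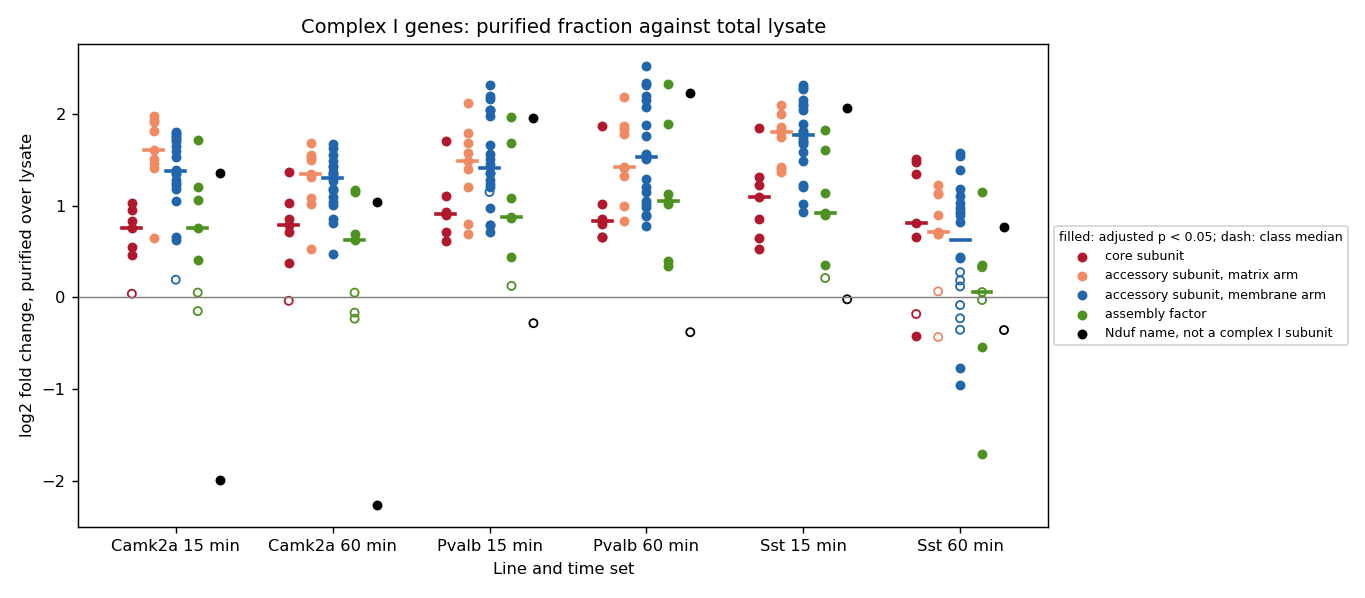
Log2 fold change of purified over lysate (y axis) for each of the 45 genes in each line and set (x axis), coloured by role; each point is 1 gene, filled where its adjusted p is under 0.05, and dashes are class medians. Most points lie above 0, with medians of 1.14 to 1.67 in 5 tables and 0.69 in Sst at 60 min.

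Among the core subunits, Ndufv1, Ndufs3, Ndufs7 and Ndufs8 rose in all 6 tables, and Ndufv2 in 5. The core median lay between 0.75 and 1.09. Ndufs1 was the exception in Camk2a. It lay at 120, 178 and 263 CPM (lowest, median and highest) in 10 purified Camk2a libraries at 15 min against 187, 236 and 280 CPM in lysates, a log2 fold change of 0.04 (adjusted p = 0.82), and at -0.04 (adjusted p = 0.78) at 60 min. In Pvalb at 60 min it lay at 218, 308 and 400 CPM in 16 purified libraries against 147, 178 and 240 CPM in 16 lysates, a rise of 1.01 ± 0.09 (SE). The Camk2a ranges of Ndufs1 overlap, and the Pvalb ranges overlap only at their edge.

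The accessory subunits rose most. The matrix-arm median was 1.61 and 1.34 in Camk2a at 15 and 60 min, 1.49 and 1.42 in Pvalb and 1.80 in Sst at 15 min, and the membrane-arm median was 1.37, 1.30, 1.40, 1.53 and 1.77 in the same order. Ndufa6, a small LYR-motif protein of the matrix arm that binds the acyl carrier protein Ndufab1, lay at 483, 548 and 620 CPM in 10 purified Camk2a libraries at 15 min and at 139, 186 and 227 CPM in 10 lysates. In Pvalb at 60 min it lay at 476, 643 and 753 CPM in 16 purified libraries against 107, 175 and 200 CPM in 16 lysates. The ranges do not overlap in either table. Its log2 fold change was 1.91 ± 0.10 in Camk2a at 15 min (adjusted p = 1.5e-11) and 2.18 ± 0.08 in Pvalb at 60 min (adjusted p = 1.2e-20).

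Ndufb5, a membrane-arm subunit, had the largest fold of the 45 genes in both Pvalb sets and in Sst at 15 min. In Pvalb it lay at 605, 1036 and 1214 CPM in 16 purified libraries at 60 min against 168, 201 and 246 CPM in 16 lysates, a log2 fold change of 2.52 ± 0.10 (adjusted p = 1e-19). It rose by 1.53 ± 0.10 in Camk2a at 15 min and by 1.18 ± 0.15 at 60 min. Ndufab1, which also serves mitochondrial fatty acid synthesis, rose by 1.24 and 1.35 in Camk2a, 1.98 and 2.07 in Pvalb and 2.08 in Sst at 15 min. Ndufa4, the complex IV protein, moved like the subunits, at 1.36, 1.04, 1.95, 2.22 and 2.06.

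Assembly factors rose less. Their median was 0.76 and 0.62 in Camk2a, 0.87 and 1.05 in Pvalb and 0.92 in Sst at 15 min. Ndufaf2, a paralog of Ndufa12 that acts late in assembly of the matrix arm, rose by 1.71, 1.17, 1.96, 2.32 and 1.82 in these tables. Ndufaf1, which works on the membrane arm, rose by 1.09 and 1.13 in Pvalb but lay at 0.05 in Camk2a at 60 min (adjusted p = 0.73). Ndufaf4, an early assembly factor that pairs with Ndufaf3, lay at -0.15 (adjusted p = 0.38) and -0.23 (adjusted p = 0.19) in Camk2a and rose by 0.86 and 1.01 in Pvalb. Whether these genes differ between lines in enrichment was not tested.

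Ndufa4l2 went the other way in Camk2a. It lay at 0, 0.541 and 1.37 CPM in purified Camk2a libraries at 60 min against 1.46, 3.27 and 5.52 CPM in lysates, ranges that do not overlap. Its log2 fold change there was -2.25 ± 0.53 (adjusted p = 0.00085), and it was -1.99 ± 0.61 at 15 min (adjusted p = 0.011). These are levels of a few CPM, and the standard errors are wide. In Pvalb and in Sst at 15 min it did not pass the threshold.

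In Sst at 60 min, the genes that rose and those that did not were split by base composition. Of 23 genes with an GC content of 50% or more, 21 rose and 1 fell (median 0.93). Of 22 genes under 50%, 6 rose and 4 fell (median 0.02). Across the 45 genes the correlation of GC content with the log2 fold change was 0.72, given as a description of genes that share the same libraries, against -0.52 to 0.01 in the other tables. Highest were Ndufb7 at 1.57, Ndufa13 at 1.53, Ndufs7 at 1.51 and Ndufv1 at 1.48 ± 0.21. Those that fell were Ndufaf4 (-1.70 ± 0.34, adjusted p = 0.00019), Ndufb4 (-0.95), Ndufb6 (-0.77), Ndufaf1 (-0.54 ± 0.17, adjusted p = 0.0092) and Ndufs1 (-0.42 ± 0.14, adjusted p = 0.012). Ndufaf4 lay at 20.5, 31.9 and 90.5 CPM in 13 purified libraries against 44.0, 150 and 228 CPM in lysates, with overlapping ranges. The lysates themselves were split. In home-cage lysates 1 to 3, Ndufaf4 lay at 150, 145 and 200 CPM, and in 4 and 5 at 50.6 and 44.0 CPM. Ndufs7 went the other way, at 105, 184 and 115 CPM and then at 364 and 394 CPM. How much of these fold changes comes with that split was not tested.

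With GC and length offsets per library, 33 rose and 1 fell in Sst at 60 min (24.2% and 18% of all genes), with a median of 0.59, and the correlation was -0.23. Without the 7 purified libraries of own-class score under 0, 30 rose and 1 fell (19.5% and 21.4%), with a median of 0.93. Ndufa6 there lay at 116, 296 and 414 CPM in 13 purified libraries against 121, 139 and 273 CPM in 13 lysates (0.72 ± 0.15, adjusted p = 0.00033). At 15 min it lay at 174, 455 and 793 CPM against 133, 153 and 163 CPM, with no overlap.

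The 3 lines were then compared in purified home-cage libraries. At 15 min, Pvalb lay above Camk2a for 6 genes and below for 0 (9.09% and 6.12% of all genes). Ndufs7 lay at 197, 184 and 211 CPM in Camk2a and at 1030, 516, 590 and 713 CPM in Pvalb, so that every Pvalb library was above every Camk2a library. Its log2 difference was 1.75 ± 0.44 (adjusted p = 0.0062), and that of Ndufv1 was 1.5 ± 0.31 (adjusted p = 0.001). The others were Ndufa11 at 1.57, Ndufb7 at 1.41, Ndufs8 at 1.11 and Ndufa8 at 1.06. The GC contents of these 6 genes ran from 53.6% to 59.6%. Across the 45 genes the correlation of GC content with the log2 difference was 0.37, and 0.09 with GC and length offsets. In the home-cage lysates Ndufs7 was also higher in Pvalb, at 448, 391 and 372 CPM against 134, 150 and 191 CPM in Camk2a. Ndufv1 was too, at 436, 329 and 344 CPM against 131, 159 and 178 CPM. Whether the purified difference exceeds that of the lysates was not tested. Leaving out 1 library, a Camk2a home-cage library or Pvalb home-cage replicate 1, left as few as 2 genes called.

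Sst lay above Camk2a at 15 min for 3 genes and below for 0 (6.06% and 3.43%), so the share that was higher was near that of all genes. The 3 were Ndufv1 (1.33 ± 0.31, adjusted p = 0.005), Ndufa11 (1.49) and Ndufs7 (1.44, adjusted p = 0.032). Ndufs7 lay at 646, 280, 360 and 865 CPM in Sst. In the home-cage lysates Ndufs7 was also higher in Sst, at 340, 374, 322 and 232 CPM against 134, 150 and 191 CPM in Camk2a. Leaving out 1 library, a Camk2a home-cage library or Sst home-cage replicate 1 or 4, left as few as 1 gene called. Between Pvalb and Sst at 15 min, 0 genes differed (0.00609% of all genes higher and 0.0487% lower), with 0 at an unadjusted p under 0.05 and 0 by DESeq2.

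At 60 min the order of the same genes turned. Ndufs7 lay at 1111, 1063, 855 and 890 CPM in Camk2a home-cage libraries, at 232 to 459 CPM in Pvalb and at 810, 581, 691, 609 and 917 CPM in Sst. Ndufv1 lay at 673, 454, 550 and 574 CPM in Camk2a, at 210 to 352 CPM in Pvalb and at 695, 487, 650, 549 and 733 CPM in Sst. For both genes Pvalb was lowest in every library at 60 min, where at 15 min Camk2a was lowest in every library. The levels of both sets come from separate tables, so this turn was not tested.

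Pvalb and Camk2a differed at 60 min for 28 of the 45 genes, 15 higher and 13 lower in Pvalb (27.1% and 24.7% of all genes). Assembly factors went both ways. Ndufaf5, an enzyme that hydroxylates Ndufs7 during assembly, lay at 107 to 124 CPM in 6 Pvalb libraries and at 38.6, 46.9, 37.0 and 44.5 CPM in Camk2a, a log2 difference of 1.32 ± 0.19 (adjusted p = 4e-07), and Ndufaf1 was higher by 1.45 ± 0.22. Ndufaf3 was lower in Pvalb by -1.60 ± 0.18 (adjusted p = 2.9e-09), at 44.6, 48.7 and 57.4 CPM in Pvalb against 112, 135 and 179 CPM in Camk2a. Neither gene's ranges overlapped.

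Of the core, Ndufv2 (1.19 ± 0.21) and Ndufs1 (1.05 ± 0.18) were higher in Pvalb, and Ndufs7 (-1.61 ± 0.24, adjusted p = 5.4e-07), Ndufv1 (-1.12 ± 0.20, adjusted p = 1.7e-05) and Ndufs8 (-0.97) were lower. The direction followed base composition. Of 22 genes under 50% GC, 15 were higher and 2 lower (median 1.0), and of 23 genes at 50% or more, 0 were higher and 11 lower (median -0.43). GC slopes of the home-cage libraries lay between -0.47 and -0.26 in Pvalb and between 0.12 and 0.36 in Camk2a. With GC and length offsets, 9 were higher and 15 lower (23.2% and 22.9% of all genes), and the correlation with GC content across the 45 genes went from -0.68 to -0.20.

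Sst lay below Camk2a at 60 min for 22 genes and above for 1 (11% and 13.4% of all genes), with a median of -0.59. The lower calls included 7 of 9 of the matrix arm and 12 of 20 of the membrane arm among the accessory subunits, 1 of 7 core subunits and 2 of 7 assembly factors. Ndufa3, a membrane-arm subunit, lay at 995, 992, 719 and 638 CPM in Camk2a and at 426, 395, 357, 352 and 481 CPM in Sst, with no overlap (-1.30 ± 0.22, adjusted p = 2.6e-05). In the home-cage lysates Ndufa3 was also lower in Sst, at 143, 227, 125, 224 and 208 CPM. The Camk2a lysates lay at 460, 314, 371 and 381 CPM. Whether the purified difference exceeds that of the lysates was not tested. Ndufa4l2 was the 1 gene above (2.20 ± 0.77, adjusted p = 0.034). Without the purified Sst libraries of own-class score under 0, 13 genes were called (10% of all genes higher and 7.88% lower). Without Camk2a home-cage replicate 1 or 2, as few as 12 were called.

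Pvalb lay above Sst at 60 min for 25 genes and below for 5 (20% and 24.2% of all genes), with a median of 0.48. Ndufaf2 (1.57 ± 0.20, adjusted p = 8.6e-08), Ndufa1 (1.91 ± 0.24), Ndufc1 (1.75) and Ndufb5 (1.74) led. The 5 below were Ndufv1 (-1.02 ± 0.19), Ndufs7 (-0.92), Ndufaf3 (-0.80), Ndufb7 (-0.67) and Ndufs8 (-0.51). With GC and length offsets, 27 were above and 0 below (13.6% and 17.7%), so the genes below Sst were not called. Without the purified Sst libraries of own-class score under 0, 21 were above and 3 below (10.8% and 18.1%). The purified Pvalb libraries of this set held somatostatin markers too, as given above.

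**Figure D3:**
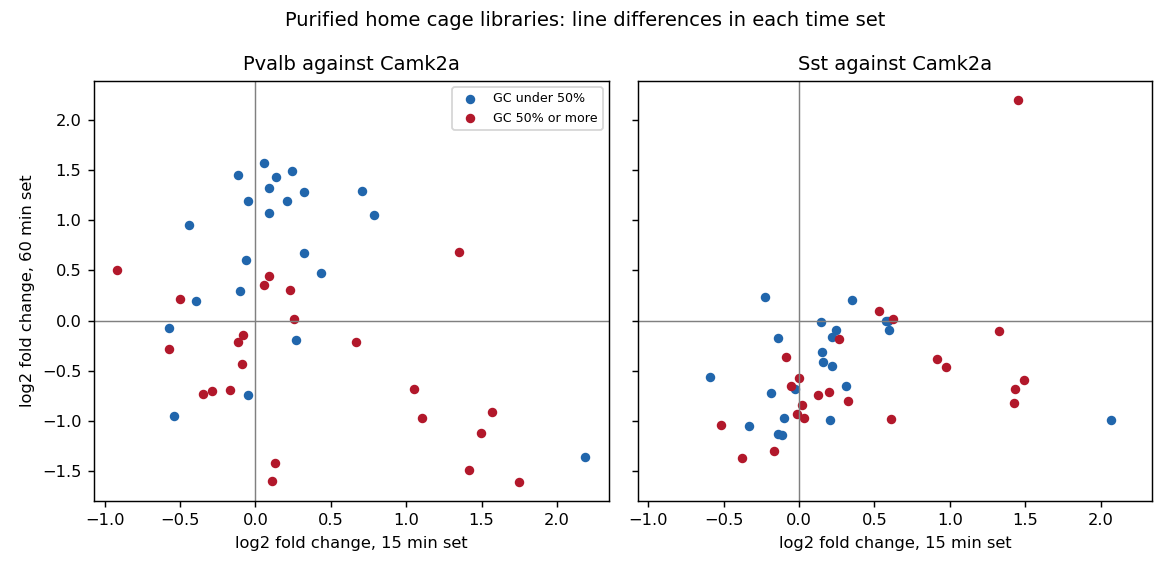
Log2 difference between lines in purified home-cage libraries for each of the 45 genes, in the 15 min set (x axis) and the 60 min set (y axis), for Pvalb against Camk2a and Sst against Camk2a; each point is 1 gene, coloured by GC content under or at least 50%. Ndufs7 and Ndufv1 sit at the lower right of the Pvalb panel, at 1.75 and 1.5 on the x axis and -1.61 and -1.12 on the y axis, and most genes under 50% GC sit above 0 on its y axis.

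The conditions were compared within each line to ask how a shock in a new context, or the context alone, moved the ribosome-bound RNA. In Pvalb at 60 min, 19 complex I genes rose and 4 fell after the shock against the home cage (19.7% of all genes higher and 15.3% lower), with a median of 0.12 against -0.06 for all genes. The share that rose stood above that background and the share that fell below it. Subunits held 17 of the 19. Of the core, 4 of 7 rose, Ndufs7, Ndufv1 and Ndufs8 among them, with 4 of 9 matrix-arm and 9 of 20 membrane-arm accessory subunits. Of 7 assembly factors, 1 rose and 2 fell.

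Ndufs7 lay at 299, 273, 388, 459, 232 and 428 CPM in the home cage, at 662, 429, 818 and 559 CPM in the box and at 542, 581, 1128, 1250, 1095 and 1122 CPM after the shock. Every shock library was above every home-cage library. Of the box libraries, 1 lay within the home-cage range and 3 within the shock range. Its log2 fold change was 1.45 ± 0.23 (adjusted p = 0.00059). Ndufb7, a membrane-arm protein facing the intermembrane space, lay at 129 to 249 CPM in the home cage, at 351, 231, 416 and 326 CPM in the box and at 306, 280, 564, 608, 517 and 602 CPM after the shock (1.40 ± 0.22, adjusted p = 0.00059). Shock replicates 1 and 2 were nearer the home cage than the other 4 for both genes.

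Ndufv1 lay at 210 to 352 CPM in the home cage, at 521, 275, 584 and 380 CPM in the box and at 421, 403, 843, 817, 781 and 782 CPM after the shock (1.26 ± 0.21, adjusted p = 0.0006). Ndufa11, a membrane-arm subunit, rose by 1.30 ± 0.20, Ndufs8 by 1.14 ± 0.19, Ndufa8 by 1.11 ± 0.18 and Ndufa13, also known as GRIM-19, by 1.02 ± 0.16, all with an adjusted p of 0.00059. Ndufaf3 rose by 0.94 ± 0.17 (adjusted p = 0.0009) and the low-level Ndufa4l2 by 1.43 ± 0.53 (adjusted p = 0.042). In all, 13 genes lay higher in every shock library than in every home-cage library (7.9% of all genes did), and 0 lay lower in every one (2.67%).

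The 4 that fell were Ndufaf4 (-0.79 ± 0.20, adjusted p = 0.0054), Ndufaf1 (-0.74 ± 0.18, adjusted p = 0.0045), Ndufs4, a matrix-arm subunit needed for a stable complex (-0.57 ± 0.19, adjusted p = 0.028), and Ndufa1 (-0.54 ± 0.19, adjusted p = 0.039). Ndufaf4 lay at 124, 134, 112, 158, 144 and 115 CPM in the home cage and at 116, 104, 51.7, 56.5, 72.1 and 58.5 CPM after the shock. Ndufs4 lay at 593 to 726 CPM in the home cage and at 628, 562, 466, 333, 342 and 308 CPM after the shock. For both, shock replicate 1 was inside the home-cage range and replicates 3 to 6 were below it. In the core, those that did not pass were Ndufs1 at -0.38 ± 0.15 (adjusted p = 0.051), Ndufv2 at -0.34 ± 0.17 (adjusted p = 0.13) and Ndufs3 at 0.21 ± 0.12 (adjusted p = 0.19).

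The direction again followed base composition. Of 23 genes at 50% GC or more, 16 rose and 0 fell (median 0.65), and of 22 under 50%, 3 rose and 4 fell (median -0.23). Across the 45 genes the correlation of GC content with the fold change was 0.76, a slope of 0.95 on the log2 scale per 10 points of GC. The libraries' own GC slopes moved with the groups. They lay between -0.47 and -0.26 in the home cage and between -0.38 and 0.25 in the box, at -0.08 and -0.10 in shock replicates 1 and 2, and between 0.53 and 0.70 in shock replicates 3 to 6.

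With GC and length offsets per library, 16 genes rose and 0 fell (8.9% and 3.55% of all genes), and the correlation was 0.13. Of these 16, 7 had a GC content under 50% and 9 at or over it. Among the 16 were Ndufb7 at 0.99, Ndufs8 at 0.66, Ndufa8 at 0.65, Ndufs7 at 0.63, Ndufv1 at 0.61 and Ndufa11 at 0.58. Ndufb8 at 0.95 and Ndufs6 at 0.83 stood as high, and both were singled out after their values were seen. Ndufs6, a zinc-binding matrix-arm subunit, lay at 262 to 326 CPM in the home cage and at 421, 360, 572, 599, 492 and 532 CPM after the shock, with no overlap. Ndufa13 at 0.16 was no longer called, and Ndufaf1 lay at -0.37 and Ndufaf4 at -0.15. The 16 also include Ndufa4, which is not a complex I subunit. It lay at -0.37 ± 0.16 without offsets and at 0.32 ± 0.09 with them (adjusted p = 0.027 in edgeR).

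Without shock replicates 3 to 6, the 4 libraries of GC slope over 0.5, 0 complex I genes and 0 of all genes were called by edgeR (0% of all genes), with 1815 of all genes at an unadjusted p under 0.05. In that fit, of 2 shock against 6 home-cage libraries, Ndufa11 lay at 0.73, Ndufb7 at 0.72, Ndufs7 at 0.71, Ndufv1 at 0.58, Ndufa8 at 0.53 and Ndufs8 at 0.50. Whether the GC slope has a part in the rise was not tested beyond these fits.

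**Figure D4:**
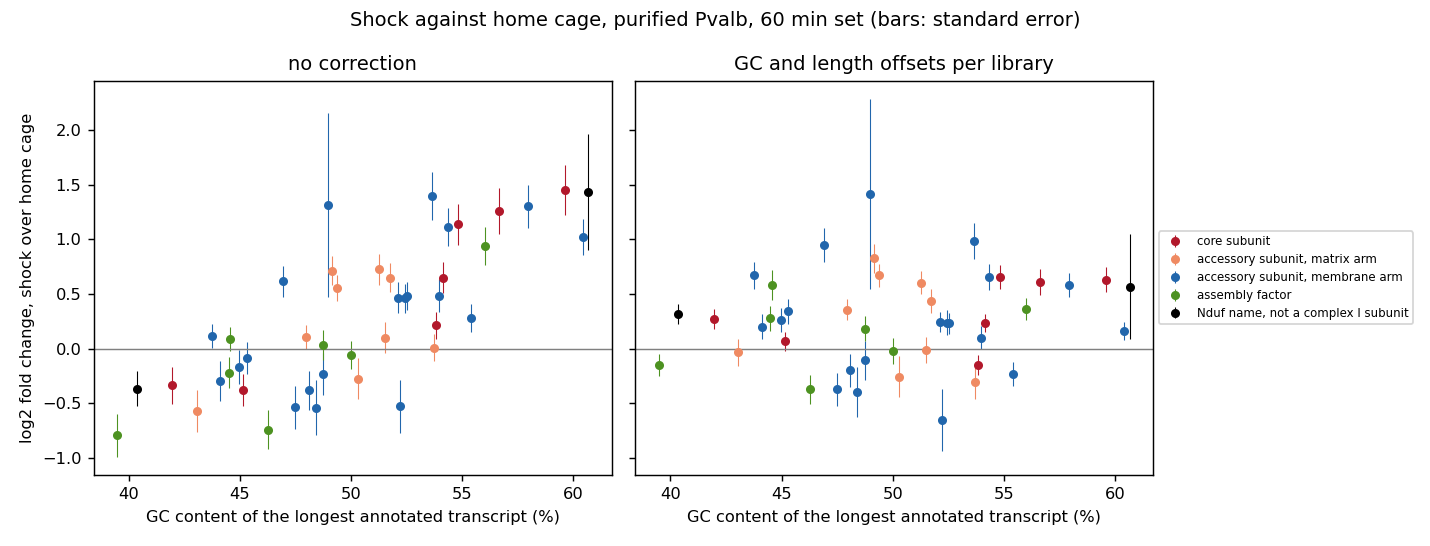
Log2 fold change of shock over home cage in purified Pvalb libraries at 60 min (y axis) against GC content in percent (x axis) for each of the 45 genes, without correction and with GC and length offsets; colours mark roles and bars are standard errors. Without offsets the points climb with GC (correlation 0.76), and with offsets the correlation is 0.13.

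The box alone did not move a complex I gene past the threshold in Pvalb at 60 min: 0 of 45 were called (0% of all genes), with 9 at an unadjusted p under 0.05 and 0 by DESeq2. The leading values were 0.84 ± 0.24 for Ndufb7 (adjusted p = 0.37) and -0.46 ± 0.20 for Ndufaf1 (adjusted p = 0.41). Shock against box also gave 0 (0% of all genes), with 22 at an unadjusted p under 0.05 and 8 by DESeq2. Ndufv3, a small matrix-arm subunit, led at 0.52 ± 0.16 and Ndufaf4 at -0.69 ± 0.22, both with an adjusted p of 0.17. Without shock replicate 2, 17 genes were called in that comparison. The shares of all genes at an unadjusted p, by DESeq2 or without that library are not given. These counts are therefore not read as particular to complex I.

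Whether the Pvalb response differed from that of other lines, sets and the lysate was tested as a difference of responses. The shock response of Pvalb at 60 min was above that of Camk2a for 18 genes and below for 9 (20.8% and 16.8% of all genes). Ndufs7 differed by 2.02 ± 0.33 and Ndufv1 by 1.77 ± 0.28 (adjusted p = 3.8e-05). Of the 18, 15 had a GC content of 50% or more. With offsets, 13 were above and 2 below (9.38% and 4.92%).

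Against the shock response of Sst at 60 min, that of Pvalb was above for 28 genes and below for 0 (13.5% and 4.70% of all genes), with Ndufs7 at 2.19 ± 0.34 (adjusted p = 2.7e-05) and Ndufa8 at 1.73 ± 0.27. With offsets, 31 were above and 0 below (11.4% and 3.44%). The Sst shock libraries of this set held few somatostatin markers, as given below. No fit of this comparison took the own-class score into account. The lines were counted in separate tables. The Pvalb response in the purified fraction was above that in its lysate for 16 genes and below for 3 (13.0% and 7.44%), led by Ndufb7 (1.47 ± 0.26, adjusted p = 0.0023), Ndufs7 (1.45) and Ndufa11 (1.37). With offsets, 10 were above and 0 below (3.18% and 0.856%). With the replicate number as a block, 0 were called, although equal numbers were not taken to pair samples. Ndufs7 lay at 288 to 490 CPM in the Pvalb lysates. Between the 60 and 15 min sets of Pvalb, 0 genes differed in response (0% of all genes), with 9 at an unadjusted p under 0.05 and 0 by DESeq2.

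In Sst at 60 min the shock libraries held less complex I RNA. Against the box, 25 of 45 genes fell and 0 rose (4.56% of all genes lower and 3.62% higher), 44 of 45 lay lower, and the median was -0.87 against 0.07 for all genes. Against the home cage, 10 fell and 0 rose (2.15% and 2.34%), all 45 lay lower, and the median was -0.63 against 0.04. The comparisons share the shock libraries. Box and home cage did not differ for any gene: 0 of 45 (0% of all genes), with 0 at an unadjusted p under 0.05 and 0 by DESeq2.

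Ndufab1 lay at 99.4, 108, 81.0, 145 and 133 CPM in the home cage, at 147, 96.5, 105 and 146 CPM in the box and at 58.9, 59.2, 61.0 and 49.1 CPM after the shock, where the Sst lysates lay at 55.9 to 97.6 CPM. All 4 shock libraries were below every home-cage and box library and within or below the lysate range. The log2 fold change was -1.26 ± 0.23 against the box (adjusted p = 0.012) and -1.09 ± 0.22 against the home cage (adjusted p = 0.019). Ndufa6 lay at 296, 334, 223, 321 and 386 CPM, then 414, 287, 338 and 388 CPM, then 202, 116, 186 and 131 CPM in home cage, box and shock (-1.31 ± 0.23 against the box, adjusted p = 0.010). Its shock libraries were again lowest, and its lysates lay at 121 to 273 CPM.

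Ndufb5 lay at 290, 382, 241, 434 and 434 CPM in the home cage, at 430, 294, 332 and 495 CPM in the box and at 182, 176, 188 and 157 CPM after the shock (-1.29 ± 0.25 against the box, adjusted p = 0.013). Ndufa12, a matrix-arm subunit, fell by 0.97 ± 0.17 against the box (adjusted p = 0.010) and by 0.70 ± 0.16 against the home cage (adjusted p = 0.032). Ndufb2 and Ndufb3, both of the membrane arm, fell by 1.15 ± 0.23 and 1.04 ± 0.20 against the box (adjusted p = 0.014 each). The calls were spread over the arms: 13 of 20 membrane-arm and 7 of 9 matrix-arm accessory subunits fell against the box, with 2 of 7 core subunits and 2 of 7 assembly factors.

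Of the core, Ndufv2 fell by 1.11 ± 0.25 (adjusted p = 0.023) and Ndufs7 by 0.96 ± 0.25 (adjusted p = 0.036) against the box. Ndufv2 lay at 653, 911, 569, 953 and 853 CPM in the home cage, at 942, 635, 681 and 1089 CPM in the box and at 400, 516, 431 and 367 CPM after the shock, with no overlap. Ndufa4 fell as well, by 1.21 ± 0.29 against the home cage (adjusted p = 0.036). Ndufs3 lay at 123 to 173 CPM in the home cage and at 152, 73.1, 146 and 92.8 CPM after the shock, so its shock libraries split and overlap the home cage. In all, 31 genes lay lower in every shock library than in every box library (6.39% of all genes did) and 0 higher (12.6%). Against the home cage 16 lay lower in every one (3.75%) and 0 higher (6.82%).

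The Sst shock libraries also held few somatostatin markers. Their own-class scores were -2.07, -1.87, -1.58 and -2.42, against -0.42, 1.63, -1.95, 2.28 and 2.76 in the home cage and 2.60, -0.29, 1.75 and 2.46 in the box. The 5 somatostatin markers summed to 177 to 452 CPM after the shock, 447 to 7774 CPM in the home cage and 2152 to 9806 CPM in the box, and to 166 to 543 CPM in the shock lysates. The 6 oligodendrocyte markers summed to 6938 to 10988 CPM after the shock against 2351 to 5471 CPM in the home cage and 2754 to 4642 CPM in the box. Astrocyte markers went the same way, at 1942 to 3447 CPM against 745 to 2003 CPM and 917 to 1749 CPM. With the own-class score as a covariate, 0 genes were called in both comparisons, and the medians were -0.51 against the box (0.908% of all genes higher and 1.34% lower) and -0.34 against the home cage (1.04% and 1.37%). How much of the fall comes with the marker content was not tested beyond this fit, since all 4 shock libraries score low.

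**Figure D5:**
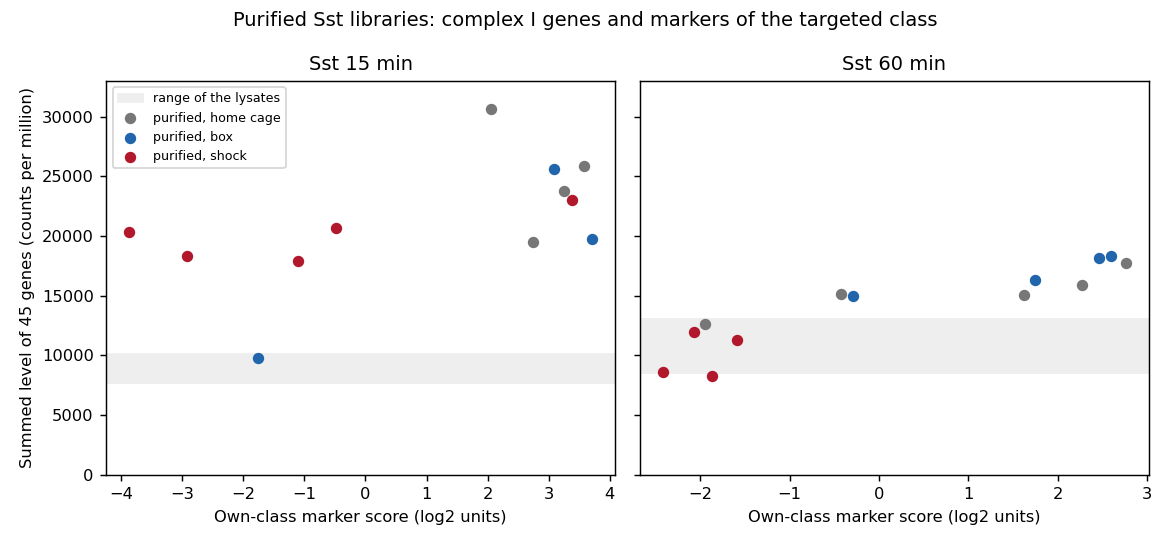
Summed CPM of the 45 complex I genes (y axis) against the own-class score (x axis, log2 units) in purified Sst libraries at 15 and 60 min; each point is 1 library, coloured by condition, and the band is the range of the lysates. At 60 min the 4 shock libraries lie at scores of -2.42 to -1.58 and sums of 8246 to 11943 CPM, below the home-cage and box libraries at 12622 to 18310 CPM.

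The summed level of all 45 genes was 11943, 8246, 11282 and 8646 CPM in the shock libraries, against 15174, 15084, 12622, 15894 and 17765 CPM in the home cage and 18310, 15008, 16314 and 18132 CPM in the box. Home-cage replicate 3, with a score of -1.95, had the lowest home-cage sum. Single libraries moved the calls against the box: without box replicate 1, 3 or 4 there were 11, 16 and 4, and without shock replicate 2 or 4 there were 15 and 3. Against the home cage, leaving out home-cage replicate 2, 3, 4 or 5 gave 4, 16, 2 and 0 calls, and leaving out shock replicate 2, 3 or 4 gave 3, 4 and 0. DESeq2 called 34 and 22 genes against the box (5.89% of all genes higher and 7.47% lower) and the home cage (4.27% and 5.84%). By Y-linked genes, 1 of 4 shock, 3 of 5 home-cage and 2 of 4 box libraries were male, and with sex as a covariate 18 genes were called against the box (2.77% of all genes higher and 2.95% lower) and 2 against the home cage (1.22% and 0.982%).

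The Sst shock response at 60 min was below that of Camk2a for 12 genes and above for 0 (2.98% and 1.88% of all genes), led by Ndufab1 (-1.45 ± 0.29, adjusted p = 0.0044) and Ndufv2 (-1.47 ± 0.30). Without Camk2a shock replicate 3, 20 were called. This comparison uses the same low-scoring Sst shock libraries, and no fit of it took the own-class score into account. Against the response in its own lysates, 0 genes were called (0.0296% of all genes higher and 0.0118% lower) although all 45 were lower, with a median of -0.85. There 25 had an unadjusted p under 0.05 and DESeq2 called 4, counts given without a share of all genes. The home-cage lysates used there are the split ones described above, with Ndufaf4 at 44.0 to 200 CPM. The shock lysates lay at 101 to 199 CPM. Whether that split has a part in this comparison was not tested. Between the 60 and 15 min sets of Sst, 0 differed (0% of all genes), with 3 at an unadjusted p under 0.05 and 0 by DESeq2.

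In Camk2a neurons, no complex I gene passed the threshold after the shock at 60 min (1.66% of all genes higher and 0.641% lower), with 15 at an unadjusted p under 0.05 and 8 by DESeq2. Ndufb6, of the membrane arm, lay at 542, 647, 565 and 695 CPM in the home cage and at 1570, 1225, 599, 1331 and 962 CPM after the shock (0.96 ± 0.26, adjusted p = 0.056). Ndufs8 lay at 584, 523, 438 and 465 CPM and at 322, 338, 371, 293 and 361 CPM (-0.53 ± 0.15, adjusted p = 0.056). The Ndufs8 groups do not overlap, and those of Ndufb6 overlap only through shock replicate 3. Without shock replicate 3, 9 genes were called, and without replicate 2, 5 were. These counts, like those by DESeq2 and at an unadjusted p, lack a share of all genes and are not read as particular to complex I. GC slopes lay between 0.12 and 0.36 in the home cage and between -0.56 and 0.01 after the shock, and the correlation of GC content with the fold change across the 45 genes was -0.70 (-0.06 with offsets).

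The Camk2a responses of the 60 and 15 min sets differed for 6 genes, all lower at 60 min (4.63% of all genes lower and 1.09% higher): Ndufs7 (-1.88 ± 0.37, adjusted p = 0.018), Ndufb7 (-1.81), Ndufa11 (-1.74), Ndufv1 (-1.31), Ndufs8 (-1.17) and Ndufaf3 (-1.07). Ndufs7 lay at 237, 308, 539 and 766 CPM after the shock at 15 min, above its home cage in every library. At 60 min it lay at 496, 858, 674, 483 and 651 CPM, with 1 library within the home-cage range and the others below. All 6 have a GC content of 50% or more, and with offsets 0 were called (0% of all genes higher and 0.00668% lower). Without 1 library (15 min home-cage replicate 1 or 2, 15 min shock replicate 4, or 60 min home-cage replicate 1) the calls were 0, 1, 2 and 1. The Camk2a response did not differ between purified fraction and lysate for any gene at 60 min: 0 were called (0% of all genes), with 6 at an unadjusted p under 0.05 and 0 by DESeq2.

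At 15 min no line had a complex I gene past the threshold after the shock. In Camk2a 0 were called against the home cage (0% of all genes), with 6 at an unadjusted p under 0.05 and 1 by DESeq2. Ndufs7 had the smallest p of those higher (1.21 ± 0.32, adjusted p = 0.50). In Pvalb 0 were called (0% of all genes), with 4 at an unadjusted p under 0.05 and 1 by DESeq2. Ndufs1 lay at 287, 373, 370 and 315 CPM in the home cage and at 240, 210, 178, 221 and 314 CPM after the shock, a log2 difference of -0.62 ± 0.20 (adjusted p = 0.24) in groups that overlap through 1 shock library.

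In Sst at 15 min 0 were called (1.11% of all genes higher and 0.0997% lower), with 12 at an unadjusted p under 0.05 and 4 by DESeq2. Ndufaf1 had the smallest p, at -1.14 ± 0.29 (adjusted p = 0.063), from 99.4, 136, 63.7 and 61.4 CPM in the home cage to 43.0, 46.9, 59.4, 39.0 and 35.0 CPM after the shock, with no overlap. Without home-cage replicate 4, 1 gene was called. The counts at an unadjusted p and by DESeq2 lack a share of all genes and are not read as particular to complex I. Own-class scores lay at 3.6, 2.1, 2.7 and 3.2 in these home-cage libraries and at 3.4, -0.5, -1.1, -3.9 and -2.9 after the shock. No fit was made without the libraries of score under 0, which would leave 1 shock library.

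Box against home cage gave 0 calls in Camk2a, Pvalb and Sst at 15 min and in Camk2a at 60 min (0% of all genes in each), with 0, 0, 5 and 0 at an unadjusted p under 0.05 and 0 by DESeq2. Shock against box gave 0 in the same 4 sets (0% of all genes), with 8, 5, 0 and 8 at an unadjusted p under 0.05 and 0 by DESeq2. In the lysates of the 3 lines fitted together, 0 complex I genes were called in each of 6 comparisons of conditions. The background there was 0.114% of all genes higher for shock against home cage at 15 min, 0.012% for box against home cage at 15 min and 0% for the others. At most 2 had an unadjusted p under 0.05, DESeq2 called 0, and the medians lay between -0.03 and 0.05.

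Other respiratory chain genes, from lists of textbook members, are given for reference by their counts. Against the lysate, all 10 complex IV genes rose in each table but Sst at 60 min, where 6 rose and 2 fell, and 14 or 15 of 15 complex V genes rose in those 5 tables, with 11 up and 1 down in Sst at 60 min. Complex III had 7 to 9 of 9 risen in the 5 tables and complex II 3 or 4 of 4. Regulators of mitochondrial gene expression were mixed, with 2 to 4 of 10 risen and 1 to 5 fallen, so their risen share was near that of all genes. Complex I assembly proteins outside the Nduf names had 2 to 7 of 9 risen. After the shock in Pvalb at 60 min, 5 of 10 complex IV, 8 of 15 complex V, 5 of 9 complex III and 2 of 4 complex II genes rose, and 1 each of complex III and V fell (19.7% of all genes higher and 15.3% lower). In Sst at 60 min against the box, 6 of 10 complex IV (median -0.99), 9 of 15 complex V (median -0.81), 2 of 9 complex III and 1 of 4 complex II genes fell and 0 rose (4.56% of all genes lower and 3.62% higher).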

How the data were processed

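Ribosome-bound and lysate RNA of 153 samples was taken from the labels, and 151 libraries were used: 2 samples were not analysed here, and 3 columns carry a group name but no usable sample number. The values are raw read counts per gene symbol, deposited by the authors as 6 tables (1 for each line and set, with both fractions inside). The tools used, per the submitters' processing notes, were featureCounts, STAR 2.7.7a and DESeq2, on the build GRCm38, and their roles are not stated. The annotation, and how reads that fit several genes were counted, are not given in the sources used here. Per the labels' protocols, polyA RNA came from RNeasy Mini columns and sequencing libraries from the Nextera XT protocol. That protocol keeps no strand information, so reads of a gene and its antisense partner are mixed.

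The 45 genes and all lists were chosen with earlier results of these data known. Each comparison (45 in all) was fitted with edgeR 4.0.16 in R 4.3.3 on all genes of the groups compared: filterByExpr, TMM scaling, robust quasi-likelihood fit and test, and Benjamini-Hochberg adjustment over all genes at 0.05. Each standard error is the log2 fold change over the root of its F value. CPM is the count divided by the library total, without TMM. The fit was tested on simulated data with known changes. Where no share is printed for them, counts at an unadjusted p, by DESeq2 or with 1 library left out lack that of all genes. Alternatives were DESeq2 1.42.0, its size factors, no filter, each library left out, a replicate block, the own-class score as a covariate, and spline offsets (4 degrees of freedom) for GC content and exon length, taken from GENCODE annotation of GRCm38 and known for 93.8% to 96.2% of genes tested. The offsets outside the comparisons of conditions in purified fractions, the sex covariate and the fits without Sst libraries of low score or Pvalb libraries of high GC slope were chosen after seeing the data.

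Per comparison, up to 6 risen and 6 fallen genes of smallest p were named, or the first in each direction where none passed, with the core subunits (values of 1 are not reported here), Ndufa4, Ndufa4l2, Ndufab1, the highest and lowest per kilobase and those moving against most others. Libraries of 1 group differed beyond counting noise (smallest reduced chi-square 20.2). The series describes biological replicates, and nothing says that equal numbers mark 1 animal. Same-numbered libraries did not deviate together in every pair of any table. Across fractions their median correlation was 0.20 in Camk2a at 15 min (-0.11 for other numbers) and -0.12 in Sst at 60 min (0.13). The sex called from Y-linked genes matched in 66 of 72 purified and lysate pairs. Many equal numbers may thus mark 1 animal, but since not all do, numbers were not taken to pair samples. Depth ranged over 9043042 to 397228206 counts.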

Additional observations from a re-analysis of the deposited data

Results flagged for a closer look

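In 3 of 27 groups tested, 1 library's summed CPM of the 45 genes stood far from the others of its group: 12423 CPM in a Camk2a 60 min lysate after the shock (gap over range 0.721), 10125 CPM in an Sst 15 min lysate after the shock (0.814) and 13029 CPM in an Sst 60 min home-cage lysate (0.899). Chance gives such a gap in about 1 in 20 groups.

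The shock response at 60 min differed between lines by an interaction test in edgeR. Between Pvalb and Camk2a it did for 27 genes (20.8% of all genes higher and 16.8% lower). Between Sst and Camk2a it did for 12 (1.88% and 2.98%), and between Pvalb and Sst for 28 (13.5% and 4.7%). The Sst shock libraries in these comparisons held few somatostatin markers, and the own-class score was not fitted there. The Camk2a response differed between the 60 and 15 min sets for 6 genes (1.09% of all genes higher and 4.63% lower). The Pvalb response differed between the purified fraction and the lysate for 19 genes (13.0% of all genes higher and 7.44% lower).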

How the results depend on the processing

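Counts of complex I genes called are given here where another setting moved them by over 1.5 times or across 0. DESeq2 called 1 gene for shock against home cage in Camk2a and 1 in Pvalb at 15 min, 4 in Sst at 15 min, 8 in Camk2a at 60 min and 22 in Sst at 60 min. It called 8 for shock against box in Pvalb at 60 min, 6 for Sst against Camk2a in the 15 min home cage and 4 for the Sst response of purified against lysate. With no filter 1 gene was called in Camk2a at 60 min, and with DESeq2's size factors 16 in Sst at 60 min against the home cage. With GC and length offsets the counts were 6 for Sst against Camk2a in the 15 min home cage, 15 for the response of Pvalb against Camk2a, 0 for Camk2a at 60 against 15 min, and 10 and 8 for the responses of purified against lysate in Pvalb and Sst. For Sst at 60 min the own-class covariate left 0 against the home cage and 0 against the box, and the sex covariate left 2 against the home cage. Without low-score libraries 13 were called for Sst against Camk2a at 60 min, and without high-GC-slope libraries 0 for shock against home cage in Pvalb.

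With the replicate number as a block, 0 were called for shock against home cage in Sst at 60 min, 0 for Camk2a at 60 against 15 min and 0 for the Pvalb response of purified against lysate, and 36 other comparisons kept a count within 1.5 times. No paired analysis was possible because the lines share no animals for the comparisons between lines.

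Leaving out 1 library gave 2 to 6 calls for Pvalb and 1 to 4 for Sst against Camk2a at 15 min, 12 to 23 for Sst against Camk2a at 60 min, 0 to 17 for shock against box in Pvalb and 3 to 28 in Sst at 60 min. For shock against home cage it gave 0 to 9 in Camk2a at 60 min, 0 to 1 in Sst at 15 min and 0 to 16 in Sst at 60 min. It gave 0 to 9 for Camk2a at 60 against 15 min and 9 to 20 for the response of Sst against Camk2a.

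Some values changed sign. Against the lysate in Camk2a, Ndufs1 was -0.026 by DESeq2, -0.026 with its size factors and -0.036 to 0.10 with 1 library left out at 15 min and 0.078 with offsets at 60 min, and Ndufaf4 was 0.27 and 0.093 with offsets. In Sst, Ndufa4l2 was -0.23 to 0.10 with 1 library left out at 15 min, and at 60 min offsets gave -0.26 for Ndufa4l2, 0.14 for Ndufs1 and 0.052 for Ndufaf1, and leaving out low-score libraries 0.16 for Ndufb6. After the shock in Pvalb at 60 min, Ndufs1, Ndufv2 and Ndufs3 were 0.066, 0.27 and -0.15 with offsets and 0.0060, 0.11 and -0.038 without high-GC-slope libraries. Ndufa4 there was -0.37 without offsets and 0.32 with them. The cause was not tested. Values of the low-level Ndufa4l2 and Ndufs5 are uncertain, and reads of Ndufs5 may be shared with a named copy.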
